A study of Mus musculus with 9 samples.

Results

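Cytosolic ribosomal protein genes encode the protein parts of the ribosome, the machine that translates mRNA in the cytosol. Members were taken by gene symbol: names of the form Rpl or Rps followed by a number with an optional a, x, y or l ending, the stalk genes Rplp0, Rplp1 and Rplp2, and Rpsa. The rule found 84 of the 32289 features in the deposited tables, 49 of the large subunit, 3 of the stalk and 32 of the small subunit. The rule used names and no measured value. Fau and Rack1 also encode ribosomal proteins, but their symbols lie outside the rule.

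The measurements are single-cell RNA sequencing of mouse embryos aged E10.75 (37 to 39 somites), taken from their forelimb buds, on a Swiss Albino background, with 3 libraries for each of 3 genotypes. Wild-type (Wt) limb buds were set beside limb buds homozygous for either of a pair of deletions of Grem1 enhancers, EC1CRM8Δ/Δ (E1C8Δ/Δ) and EC1CRM5Δ/Δ (E1C5Δ/Δ). Grem1 encodes a secreted antagonist of bone morphogenetic proteins, and both deletions are carried by every cell of the embryo. Each library came from a pair of forelimb buds, so the replicates are separate dissections. Digit loss in these mutants was the subject of the study, whose own differential tests left ribosomal protein genes out.

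As background, a ribosome has a small subunit, which reads the mRNA, and a large subunit, which joins the amino acids. The acidic stalk of the large subunit recruits the elongation factors. Each ribosome carries its proteins in equal numbers apart from those of the stalk, and the mRNAs share a tract of pyrimidines (C and T) at the start of transcription, the TOP motif, through which mTOR signalling regulates their translation. Loss of a copy of some of these genes gives specific defects: RPS19 is the gene most often mutated in Diamond-Blackfan anaemia, and loss of Rpl38 alters the axial skeleton in mice. Several members have a paralog, such as Rpl22 and Rpl22l1, that can take the same place in the ribosome.

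The tables held 133086 cell barcodes (2571 to 28480 per library) and 26620760 to 500559729 UMIs (unique molecular identifiers, counted transcripts) per library. After filters and removal of likely doublets 44654 cells remained (592 to 8699 per library), of which 35100 were mesenchyme by their markers. Pairs of libraries shared at most 22 barcodes. In mesenchyme the summed level of the 6 mesenchymal markers was 1497 to 1892 CPM (counts scaled to 1000000 UMIs), and that of the 5 embryonic globins 236 to 1502 CPM. The labels were checked on the targeted gene: Grem1 stood at 44.2, 31.2 and 32.6 CPM in the Wt libraries, 11.4, 11.3 and 15.2 in E1C8Δ/Δ, and 19.2, 18 and 25.2 in E1C5Δ/Δ, all below Wt, which checks mutant against Wt but not which deletion a library carries. From Xist and Y-linked counts all 3 Wt libraries were male, and replicates 1 and 2 of E1C8Δ/Δ and replicates 1 and 3 of E1C5Δ/Δ were female.

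The start sequences of many members hold a run of pyrimidines near the annotated start. Starts were given by RefSeq (GRCm38.p6) for 64 of the 84 members. In each the longest unbroken run of C and T letters on the gene's strand was searched from 25 bases before to 50 bases after the annotated start. The members printed here are those on which the genotype comparison turns (Rpl35, Rps27, Rpl38, Rpl5), the S6 kinase target Rps6, the erythroid-high Rpl14 and the paralogs Rpl22 and Rpl22l1, 30 bases each and 5′ to 3′, with that run in capitals.
Rpl35 (chr2:39005117-39005146, minus strand): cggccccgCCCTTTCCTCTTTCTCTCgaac
Rps27 (chr3:90213629-90213658, minus strand): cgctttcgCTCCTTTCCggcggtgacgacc
Rpl38 (chr11:114668570-114668599, plus strand): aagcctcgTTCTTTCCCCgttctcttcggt
Rpl5 (chr5:107900500-107900529, plus strand): tacagccaCTCTTTCTCacgtcgcttgcgt
Rps6 (chr4:86857347-86857376, minus strand): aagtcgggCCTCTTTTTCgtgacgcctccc
Rpl14 (chr9:120571501-120571530, plus strand): agggcgggCCCTCTCTCTTCTCgctgagcg
Rpl22 (chr4:152325702-152325731, plus strand): acagccgaCTTCgccctgggaaaagcaata
Rpl22l1 (chr3:28805501-28805530, plus strand): caagcccgTTCTCTTCCCacggctgcagct

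A run of 8 or more C and T letters stood in 48 of the 64 members (75.0%), against 27.2% of all 32817 starts in the table and 24.8% of the 14814 starts of the other genes tested in mesenchyme. The median run was 10 bases in members and 6 in all starts. Among the sequences shown, the run was 18 bases in Rpl35, 14 in Rpl14 and 10 in Rpl38, Rps6 and Rpl22l1, while it was 4 in Rpl22. Of the members with a start that fell in E1C8Δ/Δ, Rpl35, Rps27, Rpl38, Rps21, Rpl41 and Rpl37 had a run of 8 or more, while the longest run of Rps28 was 5. Rpl5, which rose, had a run of 9. A run of letters is a description of the window and not a mapped transcription start.

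The members lie on 19 chromosomes, with 14 on chromosome 7 and 4 on the X chromosome (Rpl39, Rpl10, Rps4x and Rpl36a). All 84 are annotated as protein coding, and their coding lengths run from 138 bases (Rpl41) to 1257 bases with a median of 462. In mesenchyme 77 members had a mean over 1000 CPM and 4 lay between 100 and 1000 CPM. The remaining 3, Rpl3l, Rpl10l and Rpl39l, stayed below 1 CPM in every library. Rpl41, whose product is the smallest ribosomal protein, had the highest mean at 6054 CPM. Ribosomal protein genes have many near-identical pseudogene copies, so the level of a single gene depends on how shared reads were counted. The 5 pseudogene features named in the tables held 0.0565% as many UMIs as the members.

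The 84 members together made up a large part of the mesenchymal transcripts in every library, and the ranges of this total overlapped between the genotypes. Their share of UMIs in mesenchyme was 22, 23.88 and 22.03% in the Wt libraries, 21.22, 22.2 and 23.74% in E1C8Δ/Δ, and 24.95, 23.61 and 22.09% in E1C5Δ/Δ. Replicate 1 of E1C8Δ/Δ was the lowest and replicate 1 of E1C5Δ/Δ the highest. The means were 22.6 ± 1.08% (SD, n = 3) in Wt, 22.4 ± 1.27% in E1C8Δ/Δ and 23.6 ± 1.43% in E1C5Δ/Δ. E1C8Δ/Δ differed from Wt by -0.256 percentage points and E1C5Δ/Δ by 0.912, both within the pooled SD of 1.27.

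Among cell types, chosen by marker genes that are not members, the share was highest in epithelium and lowest in erythroid cells. Muscle progenitors exceeded the mesenchyme of their own library by 1.22 ± 0.315 percentage points (SD, n = 8) and did so in 8 of 8 libraries. In epithelium the excess was 1.81 ± 0.355 points (n = 6), with all 6 libraries higher. Endothelium differed by -0.462 ± 0.579 points (n = 7), less than its SD, with 6 of 7 libraries lower, and myeloid cells by 1.33 ± 2.28 points (n = 3), with 2 of 3 higher.

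Erythroid cells fill their transcriptome with globin mRNA, and their ribosomal share depended on whether it was counted. Of all UMIs the share was 16.4 to 20.9% over 7 libraries, and it differed from mesenchyme by -5.24 ± 1.1 points (SD, n = 7), lower in 7 of 7. With mitochondrial and haemoglobin UMIs left out of the total it was 29 to 36.2%, and the difference was 9.8 ± 2.27 points, higher in 7 of 7. The globins stood at 331757 to 478560 CPM in these cells.

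**Figure D1:**
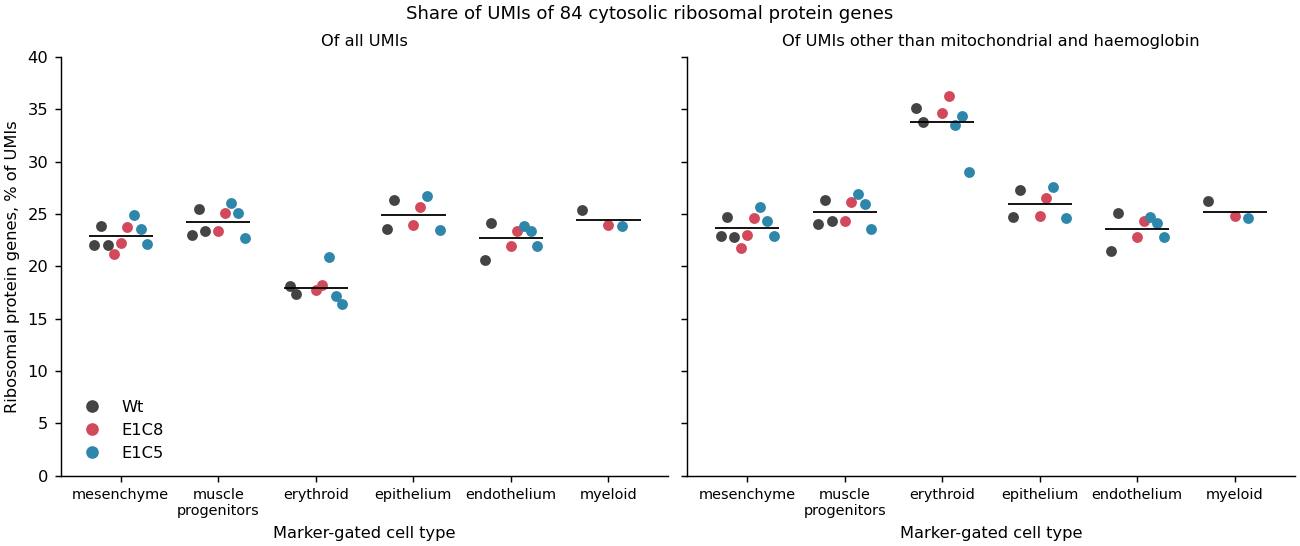
Share of UMIs from the 84 cytosolic ribosomal protein genes (y axis, percent) by cell type (x axis), of all UMIs (left) and of UMIs other than mitochondrial and haemoglobin (right), with 1 point per library coloured by genotype and a line at the mean over libraries. Mesenchyme lies between 21.22 and 24.95% with the 3 genotypes interleaved, and erythroid cells lie below it on the left (16.4 to 20.9%) and above it on the right (29 to 36.2%).

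Within mesenchyme, single members were then compared between genotypes on UMIs summed per library, with the quasi-likelihood test of edgeR. P-values were adjusted by the Benjamini-Hochberg method across the 16150 genes that entered. Of the 84 members 78 entered, the 4 on X having been set aside because the libraries differ in sex and Rpl3l and Rpl10l being too low. In E1C8Δ/Δ 8 members fell and 1 rose. The 8 that fell were the large-subunit genes Rpl35, Rpl38, Rpl41 and Rpl37 and the small-subunit genes Rps29, Rps28, Rps27 and Rps21, and Rpl5 rose. Of all genes tested 5.86% were called lower and 3.7% higher, so 8 of 78 lower is above and 1 of 78 higher below the background. At an unadjusted p under 0.05 in either direction there were 20 of 78 members, near the 25.8% of all genes. The median log2 fold change was 0.04 over the members and -0.01 over all genes.

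Rpl35, a large-subunit protein near the exit of the peptide tunnel, showed the biggest fold change among the members. Its level was 1471, 2153 and 1952 CPM in Wt, 450, 540 and 929 in E1C8Δ/Δ, and 1801, 1702 and 1220 in E1C5Δ/Δ. Every E1C8Δ/Δ library lay below every library of the other 2 genotypes. The log2 fold change of E1C8Δ/Δ against Wt was -1.54 (SE 0.26, adjusted p = 0.00709). Rpl35 (ENSMUSG00000062997) lies at chr2:39001580-39005624 on the minus strand in mm10.

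Rps29, a short zinc-binding protein of the small subunit, stood at 3887, 5627 and 3980 CPM in Wt, 1463, 1568 and 2870 in E1C8Δ/Δ, and 4870, 3557 and 3376 in E1C5Δ/Δ. Again the E1C8Δ/Δ libraries were below all others, and replicate 3 was the highest of them. The change against Wt was -1.19 (SE 0.26, adjusted p = 0.0188). Rps28, also of the small subunit, was at 2945, 4388 and 3606 CPM in Wt and 1228, 1375 and 2402 in E1C8Δ/Δ, without overlap. It changed by -1.13 (SE 0.24, adjusted p = 0.0184).

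Rps27, a zinc-finger protein of the small subunit, had 2109, 2970 and 2501 CPM in Wt and 896, 1035 and 1614 in E1C8Δ/Δ. The groups did not overlap, and the log2 fold change was -1.10 (SE 0.21, adjusted p = 0.0122). Rpl38, the gene known for its part in skeletal patterning, had 2007, 2982 and 2400 CPM in Wt and 934, 979 and 1713 in E1C8Δ/Δ. These groups were also apart, with a change of -1.03 (SE 0.24, adjusted p = 0.0252).

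Rps21, Rpl41 and Rpl37 completed the group with smaller changes. Their log2 fold changes were -0.89 (SE 0.22, adjusted p = 0.0311), -0.79 (SE 0.21, adjusted p = 0.037) and -0.72 (SE 0.21, adjusted p = 0.0491), and each had all 3 E1C8Δ/Δ libraries below all 3 Wt libraries. Rpl37 came closest to overlap, with 2920 CPM in E1C8Δ/Δ replicate 3 against 2960 in the lowest Wt library. Just past the threshold, among the members on X tested with X and Y genes kept, Rpl39 had -0.69 (SE 0.20, adjusted p = 0.0509).

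Rpl5, which with Rpl11 can bind the p53 regulator Mdm2, moved the other way. It stood at 1791, 1831 and 1782 CPM in Wt, 2313, 2312 and 2349 in E1C8Δ/Δ, and 2097, 2002 and 1890 in E1C5Δ/Δ. The E1C8Δ/Δ libraries were the highest and the Wt libraries the lowest, with no overlap among the 3 groups. The change of E1C8Δ/Δ against Wt was 0.37 (SE 0.09, adjusted p = 0.0288).

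**Figure D2:**
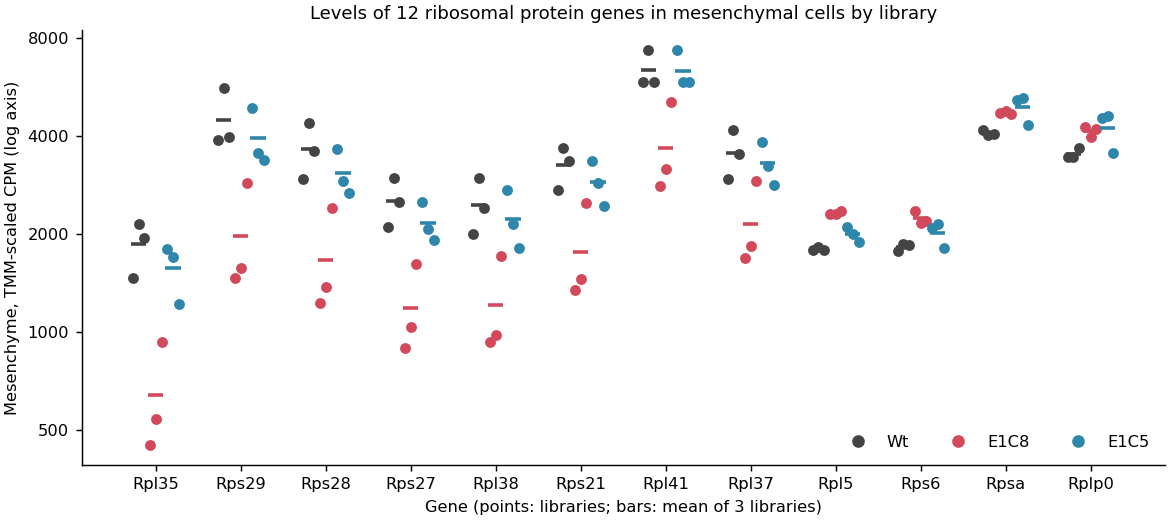
Level in mesenchyme (y axis, CPM after TMM scaling, log axis) of 12 members (x axis), with 1 point per library coloured by genotype and a bar at the mean of 3 libraries. Rpl35, Rps29, Rps28, Rps27, Rpl38, Rps21, Rpl41 and Rpl37 are lower in all 3 E1C8Δ/Δ libraries than in all 3 Wt libraries, and Rpl5, Rps6, Rpsa and Rplp0 are higher, of which Rpl5 passed the test.

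Counting libraries that did not overlap gave the same 8 members below Wt in E1C8Δ/Δ (17.2% of all genes tested lay below) and 20 members above it (15.7% of all genes). Among these 20 were Rpsa, Rps6, Rpl11 and Rplp0, none of which passed the test. Rps6, the target of the S6 kinases, was at 1771, 1868 and 1855 CPM in Wt and 2352, 2161 and 2197 in E1C8Δ/Δ, all higher. Its log2 fold change was 0.29 (SE 0.10, adjusted p = 0.0934). Rps19 stood at 2975, 3417 and 3204 CPM in Wt and 2373, 2756 and 3429 in E1C8Δ/Δ, which overlap, with -0.17 (SE 0.15, adjusted p = 0.521).

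The number of members called in E1C8Δ/Δ rested on single libraries and on how embryo sex was treated. It was 2 without Wt replicate 2, 1 without E1C8Δ/Δ replicate 1 and 1 without E1C8Δ/Δ replicate 2, and 0 with embryo sex as a covariate. With that covariate Rpl35 had -1.23 (SE 0.25, adjusted p = 0.0517) and Rps27 -0.90 (SE 0.23, adjusted p = 0.0885). Replicate 3 of E1C8Δ/Δ, a male library like those of Wt, was below every Wt library for each of the 8 members that fell. It was also the highest E1C8Δ/Δ library for each of them, above the female replicates 1 and 2. The part of sex in the result was not tested further.

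In E1C5Δ/Δ no member passed the test against Wt, where 1.36% of all genes did. The edgeR count of 0 compares with 3 of 78 members at an unadjusted p under 0.05 (13.8% of all genes) and with 0 members by DESeq2. The members with the lowest p were Rpsa, Rps18 and Rplp0. Rpsa, a small-subunit protein also described as a laminin receptor precursor, was at 4170, 4034 and 4050 CPM in Wt and 5169, 5233 and 4327 in E1C5Δ/Δ. All E1C5Δ/Δ libraries were above Wt, with a log2 fold change of 0.27 (SE 0.10, adjusted p = 0.276).

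Rps18 of the small subunit had 1566, 1643 and 1206 CPM in Wt and 2073, 1696 and 1682 in E1C5Δ/Δ, without overlap, and its change was 0.30 (SE 0.14, adjusted p = 0.349). Rplp0, the base of the stalk, had 3457, 3444 and 3683 CPM in Wt and 4535, 4610 and 3539 in E1C5Δ/Δ, which overlap, and its change was 0.26 (SE 0.12, adjusted p = 0.351). Members without overlap were 0 lower (9.56% of all genes) and 5 higher (7.49% of all genes).

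Comparing the mutants with each other asks whether the deletions differ and uses no shared control. In E1C8Δ/Δ 6 members were lower than in E1C5Δ/Δ and 0 higher, against 5.57% of all genes lower and 4.43% higher. At an unadjusted p under 0.05 there were 14 of 78 members, below the 27.3% of all genes. Rpl35 differed by -1.30 (SE 0.25, adjusted p = 0.0124) and Rps29 by -1.0 (SE 0.25, adjusted p = 0.0322). Rps28 and Rpl38 each differed by -0.88, Rps27 by -0.87 and Rpl41 by -0.79 (adjusted p = 0.0251 to 0.0404). Libraries did not overlap for 8 members lower in E1C8Δ/Δ (18% of all genes) and 3 higher (17.8% of all genes). Here too single libraries mattered: the count was 1 without E1C8Δ/Δ replicate 1, 0 without E1C8Δ/Δ replicate 2, 10 without E1C8Δ/Δ replicate 3, 1 without E1C5Δ/Δ replicate 1 and 1 without E1C5Δ/Δ replicate 2, while embryo sex as a covariate gave 7.

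Averaged over both mutants against Wt, 0 members passed the edgeR test, where 2.14% of all genes did. At an unadjusted p under 0.05 there were 21 of 78 members (19.4% of all genes), and DESeq2 called 1 higher and 3 lower. Leaving out E1C8Δ/Δ replicate 3 or E1C5Δ/Δ replicate 3 gave 5 members each. Rpl35 had the lowest p of the members, with 1471 to 2153 CPM in Wt against 450 to 1801 in the 6 mutant libraries, which overlap because of E1C5Δ/Δ. Its log2 fold change was -0.89 (SE 0.21, adjusted p = 0.056), followed by Rps27 with -0.66 (SE 0.17, adjusted p = 0.0766) and Rps28 with -0.69 (SE 0.20, adjusted p = 0.102).

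The members that fell in E1C8Δ/Δ were short, apart from Rpl35. Of the 9 tested members with 300 or fewer coding bases, 7 fell, with a median log2 fold change of -0.89, and the other two were Rpl37a at -0.43 (SE 0.21, adjusted p = 0.227) and the barely detected Rpl39l. Of the 47 members with 301 to 600 coding bases 1 fell (Rpl35, with 369 bases), and the median was 0.02. Of the 22 over 600 bases none fell and 1 rose (Rpl5, with 891), with a median of 0.21.

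Across the 78 members, coding length and the E1C8Δ/Δ log2 fold change had a Spearman rho of 0.75 and a Pearson r of 0.59. In E1C5Δ/Δ against Wt rho was 0.55 and r 0.47. These correlations run over genes of the same 9 libraries, which share depth and base composition, so they are given without a test, and the E1C8Δ/Δ and E1C5Δ/Δ values share their Wt libraries. Across all 13807 tested genes with a coding length rho was -0.35 for E1C8Δ/Δ and -0.10 for E1C5Δ/Δ, the opposite sign.

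Other genes of the same coding length were called lower about as often as all genes. The 249 other genes with 300 or fewer coding bases had a median of 0.03 in E1C8Δ/Δ, and 13 of them (5.2%) fell. Genes were also grouped by the whole length of the annotated transcript with the longest coding sequence, which need not be the one expressed. The 48 other genes with transcripts of 400 or fewer bases had a median of -0.39, and 7 (14.6%) fell. The 6 members in that class had a median of -1.06, and 5 fell. Rpl41, Rpl37 and Rpl35, which also fell, lay outside it with 509, 835 and 946 bases. What the difference by length comes from was not tested.

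**Figure D3:**
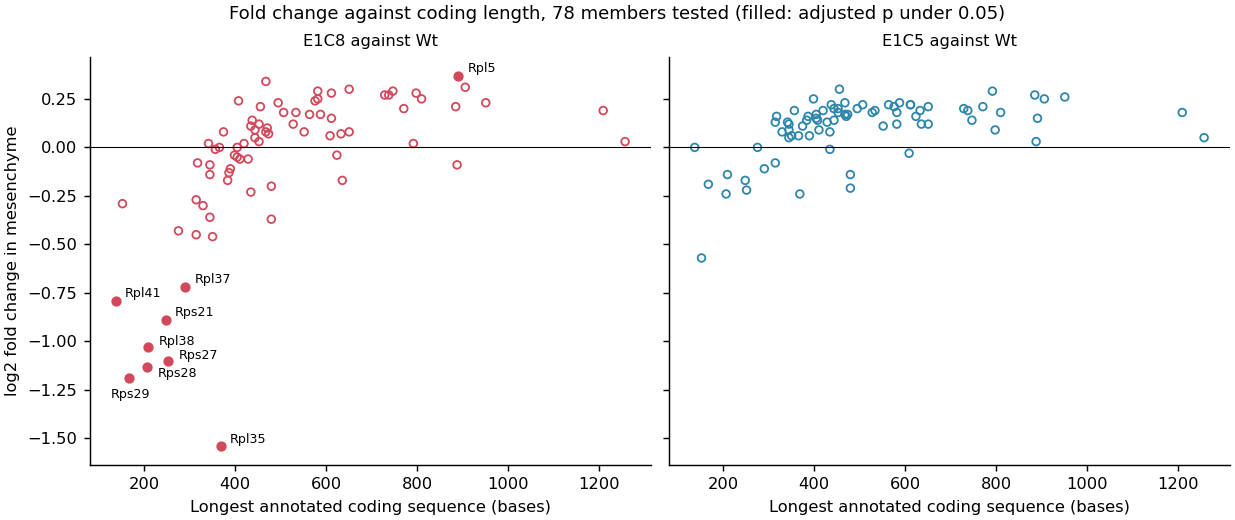
Log2 fold change in mesenchyme (y axis) against coding length in bases (x axis) for the 78 members tested, in E1C8Δ/Δ (left) and E1C5Δ/Δ (right) against Wt, with called members filled and named. In E1C8Δ/Δ the members with 300 or fewer coding bases have a median of -0.89 and those over 600 bases a median of 0.21.

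The balance of short and long members differed between libraries in every cell type alike. In mesenchyme the short members (300 or fewer coding bases) gave 12.35, 14.86 and 13.81% of the members' UMIs in Wt. In E1C8Δ/Δ they gave 6.42, 6.6 and 9.73%, and in E1C5Δ/Δ 12.54, 10.63 and 11.78%. All E1C8Δ/Δ libraries were below all libraries of the other genotypes, and the Wt and E1C5Δ/Δ libraries overlapped. Since these members were grouped after their changes were known, these percentages carry no test.

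The same libraries were low in the other cell types. In muscle progenitors the short members gave 12.65 to 15.09% of the members' UMIs in Wt, 6.71 and 9.83% in E1C8Δ/Δ replicates 2 and 3, and 10.82 to 12.56% in E1C5Δ/Δ. Erythroid cells had 11.83 and 14.32% in Wt replicates 1 and 2, 6.37 and 9.42% in E1C8Δ/Δ, and 10.32 to 12.02% in E1C5Δ/Δ. Epithelium had 12.73 and 15.45% in Wt, 6.81 and 9.9% in E1C8Δ/Δ, and 12.65 and 12.04% in E1C5Δ/Δ.

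Endothelium showed the same order, with 6.75 and 9.91% in E1C8Δ/Δ against 12.43 and 15.07% in Wt and a mean of 11.8 ± 1.06% (SD, n = 3) in E1C5Δ/Δ, whose libraries all lay above those of E1C8Δ/Δ. In myeloid cells the only E1C8Δ/Δ library with enough cells had 6.63%, against 11.6% in the Wt and 12.63% in the E1C5Δ/Δ library. Barcodes that failed the gene filter, with more than 1000 and up to 2500 genes, had 13.13, 15.12 and 14.33% in Wt, 6.95, 7.11 and 10.26% in E1C8Δ/Δ, and 12.71, 11.07 and 11.65% in E1C5Δ/Δ. A difference that is alike in blood cells, limb cells and low-gene barcodes of a library moves with the library, and whether it comes from the genotype or from the preparation of the libraries cannot be told apart in this design.

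**Figure D4:**
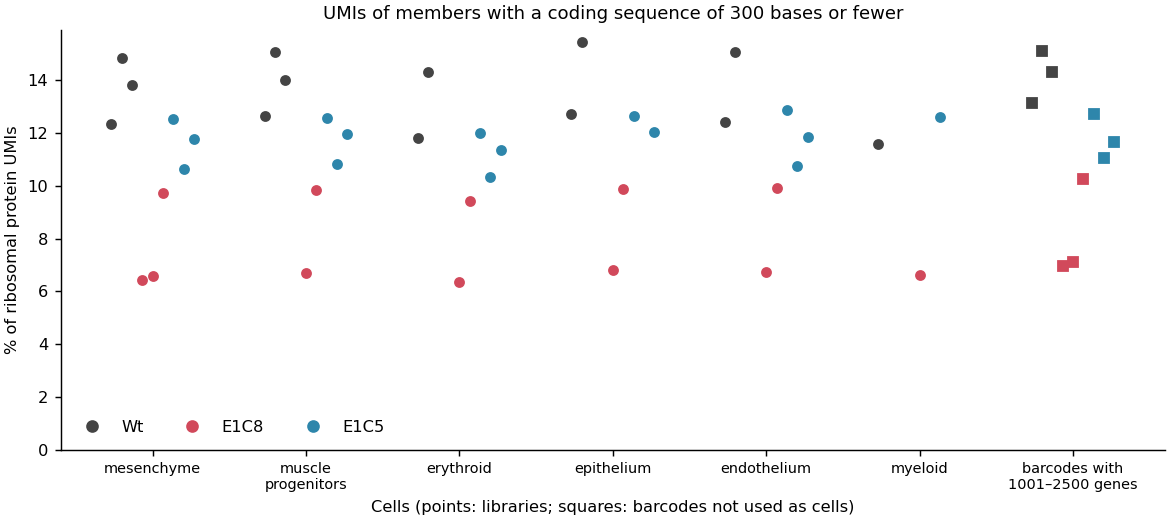
Percent of the members' UMIs that come from members with 300 or fewer coding bases (y axis), by cell type (x axis), with 1 point per library coloured by genotype and barcodes with 1000 to 2500 genes as squares. In each cell type the E1C8Δ/Δ libraries, 6.37 to 9.91%, lie below all Wt and E1C5Δ/Δ libraries.

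Rpl35, with 369 coding bases outside this short group, and the short member Rps29 were also lower than Wt in the E1C8Δ/Δ libraries outside mesenchyme. On the scale set over all cell types, Rpl35 in erythroid cells stood at 3662 and 3911 CPM in Wt, 1207 and 1970 in E1C8Δ/Δ, and 2608, 3128 and 1851 in E1C5Δ/Δ. In muscle progenitors it was at 1303, 1999 and 1820 CPM in Wt, 494 and 825 in E1C8Δ/Δ, and 1537, 1554 and 1056 in E1C5Δ/Δ. The E1C8Δ/Δ libraries were below Wt in both, and E1C5Δ/Δ replicate 3 was below E1C8Δ/Δ replicate 3 in erythroid cells. Rps29 in erythroid cells was at 8298 and 8564 CPM in Wt, 3060 and 5439 in E1C8Δ/Δ, and 6559, 5530 and 4131 in E1C5Δ/Δ, with both mutants below Wt and overlapping each other.

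No member passed the test of both mutants against Wt in these cell types. The libraries that entered were 8 for muscle progenitors, 7 for erythroid cells, 7 for endothelium and 6 for epithelium. This test averages both deletions, and E1C8Δ/Δ alone against Wt was not tested outside mesenchyme. In muscle progenitors 0 of 77 members passed by edgeR (0.608% of all genes did), with 16 at an unadjusted p under 0.05 (11.5% of all genes) and 1 lower by DESeq2. The count was also 0 in erythroid cells (0.0104% of all genes), epithelium (0.01%) and endothelium (0.00969%). Unadjusted, 5, 5 and 6 members had p under 0.05 there (3.36, 4.46 and 5.19% of all genes), and DESeq2 called 0 in each. Myeloid cells, found in sufficient number in a single library of each genotype, were not tested.

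Between cell types, members were compared with mesenchyme of the same libraries, with the library as a block, over 13643 genes of which 81 were members. Erythroid cells had the highest member levels relative to other genes, with 80 of 81 members higher and 0 lower, against 36.7% of all genes higher and 42.6% lower. The median log2 difference was 1.07 for members and -0.13 for all genes. Rpsa had 7327 to 13662 CPM (median 11561) in erythroid cells of 7 libraries and 3144 to 4025 (median 3683) in mesenchyme of 9. The ranges did not overlap, and the log2 difference was 1.56 (SE 0.08, adjusted p = 3.6e-20).

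Rpl14 of the large subunit had 3016 to 7211 CPM (median 6054) in erythroid cells against 1735 to 2079 (median 1860) in mesenchyme, a difference of 1.55 (SE 0.09, adjusted p = 2.81e-19). Rpl36al, the autosomal paralog of the X-linked Rpl36a, had 1229 to 1959 CPM (median 1796) against 497 to 669 (median 562), a difference of 1.53 (SE 0.06, adjusted p = 2.12e-23). In both the ranges were apart. The member that did not pass was Rpl7l1, the Rpl7 paralog, with 76.9 to 159 CPM (median 147) against 108 to 149 (median 134), overlapping, and 0.08 (SE 0.07, adjusted p = 0.304).

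The direction of the erythroid result depended on the scaling. TMM scaling sets the bulk of genes level between cell types, whereas scaling to library totals counts the globins, and it moved the median of all genes from -0.13 to -1.57. On library totals 1 member was higher and 76 were lower, with a member median of -0.39. Relative to the median of all genes the members were 1.19 higher with TMM and 1.18 higher on totals. As a plain difference from mesenchyme, Rpsa stood at 1.56 with TMM and 0.11 on totals, where the medians of all genes were -0.13 and -1.57.

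In muscle progenitors 30 of 81 members were higher and 0 lower, against 18.3% of all genes higher and 20.5% lower, and the member median was 0.14. Rplp1, a stalk protein, had 3905 to 5474 CPM (median 4268) in 8 libraries against 2664 to 4194 (median 3291) in mesenchyme. The ranges overlap, but each library was higher than its own mesenchyme, by 0.34 (SE 0.07, adjusted p = 0.000151). Rps12 and Rps2, both of the small subunit, each rose by 0.28 (SE 0.07, adjusted p = 0.000487, and SE 0.09, adjusted p = 0.0111), with 8 of 8 libraries higher. The count of 30 fell to 15 when cells with mesenchymal markers were allowed in the gate, to 17 with doublets kept and to 10 with cells of over 1000 genes.

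Epithelium had 12 members higher and 0 lower, below the 25.7% and 26.8% of all genes. Rpl39, X-linked and very short, had 1542 to 3296 CPM (median 2480) in 6 libraries against 1068 to 2550 (median 1927) in mesenchyme, overlapping ranges with 6 of 6 libraries higher, and a difference of 0.30 (SE 0.08, adjusted p = 0.000767). Rps20 differed by 0.25 (SE 0.08, adjusted p = 0.0115) and Rpl35 by 0.24 (SE 0.07, adjusted p = 0.00344), also in 6 of 6 libraries. The count depended on the method, with 47 by DESeq2 and 38 on library totals (37 higher, 1 lower), and was 7 without E1C8Δ/Δ replicate 2.

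Endothelium had 24 members higher and 2 lower, below the 34.2% and 36.5% of all genes. Rps2 had 2519 to 2899 CPM (median 2750) in 7 libraries against 1656 to 2788 (median 1852) in mesenchyme, higher in 7 of 7 by 0.54 (SE 0.09, adjusted p = 3.79e-06). Rpl23 and Rpl22l1 were each higher by 0.32 (SE 0.07 for both), again in 7 of 7 libraries. Rps26 had 1924 to 2906 CPM (median 2069) against 2164 to 3516 (median 2794) and was lower in 7 of 7 libraries, by -0.33 (SE 0.07), as was Rpl23a by -0.21 (SE 0.07, adjusted p = 0.00576). On library totals 13 members were higher and 24 lower, and the median of all genes moved from -0.05 to -0.21. The lower calls of Rps26 and Rpl23a and the higher calls of Rps2, Rpl23 and Rpl22l1 kept their sign on that scale.

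Myeloid cells, in 3 libraries, had 48 members higher and 0 lower, against 28.9% and 32.1% of all genes, with a member median of 0.24. Rpl36al had 973 CPM in Wt replicate 1, 890 in E1C8Δ/Δ replicate 2 and 1121 in E1C5Δ/Δ replicate 1. All 3 values exceeded the highest mesenchymal value of 669, and the difference was 0.75 (SE 0.09, adjusted p = 5.07e-10). Rplp1 differed by 0.67 (SE 0.10, adjusted p = 2.5e-07) and Rps12 by 0.56 (SE 0.09, adjusted p = 1.26e-06), both higher in 3 of 3 libraries. The count was 28 without Wt replicate 1 and 26 without E1C8Δ/Δ replicate 2, and on library totals 27 members were higher and 3 lower, with the median of all genes moving from -0.13 to -0.31.

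**Figure D5:**
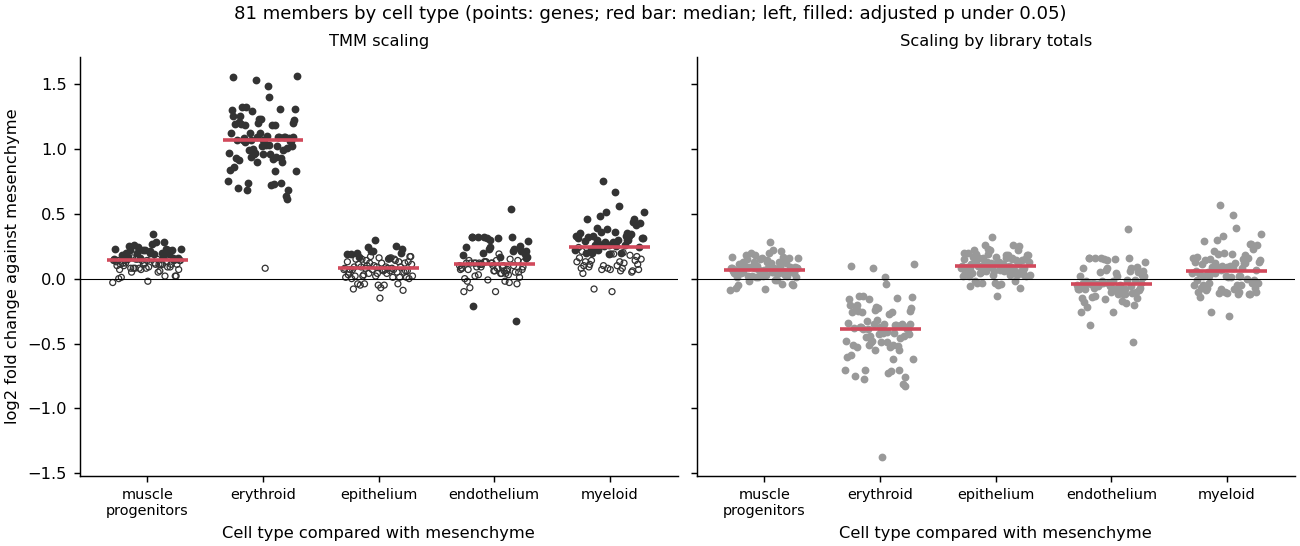
Log2 difference from mesenchyme (y axis) of the 81 members tested in 5 cell types (x axis), after TMM scaling (left, filled where called) and scaling to library totals (right), with 1 point per member and a red bar at the member median. Erythroid cells stand apart on the left with a member median of 1.07, which is -0.39 on library totals.

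Rplp0, Rplp1 and Rplp2, the stalk genes, all passed the test in erythroid cells (median 1.40), where 80 of 81 members did, in muscle progenitors (0.27), where 30 of 81 did, and in myeloid cells (0.36), where 48 of 81 did, while 0 of the 3 passed in epithelium (0.06) and 1 in endothelium (0.17). In erythroid cells Rplp0 differed from mesenchyme by 1.48 (SE 0.10), Rplp1 by 1.40 (SE 0.08) and Rplp2 by 1.03 (SE 0.07), and on library totals these values were 0.01, -0.04 and -0.41. The small and large subunits had near-equal medians in each cell type, for instance 1.02 and 1.07 in erythroid cells and 0.13 and 0.14 in muscle progenitors. In E1C8Δ/Δ against Wt the 4 small-subunit and 4 large-subunit members that fell came from 31 and 44 tested.

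Paralogs were measured as their share of the UMIs of each pair, which does not depend on scaling. Rpl22l1 gave 35.8 ± 2.37% (SD, n = 9) of the Rpl22 and Rpl22l1 UMIs in mesenchyme (range 31.2 to 39%) and 40.7 ± 3.01% (n = 7) in erythroid cells (37.8 to 45.9%). The ranges overlap, but within libraries the erythroid share was higher in 7 of 7, by 5.19 ± 2.02 percentage points (SD). Rpl36al gave 34.3 ± 4.08% (n = 9) of its pair with Rpl36a in mesenchyme (28.6 to 40.4%) and 43.3 ± 2.97% (n = 7) in erythroid cells (38.4 to 48.1%), and within libraries the erythroid share was higher in 7 of 7, by 9.06 ± 1.9 points. Neither shift was confined to erythroid cells. The Rpl22l1 share was also higher in endothelium (7 of 7), epithelium (6 of 6), myeloid cells (3 of 3) and 5 of 8 muscle libraries. The Rpl36al share was higher in myeloid cells (3 of 3, by 11.5 points), endothelium (7 of 7), muscle progenitors (8 of 8) and 3 of 6 epithelium libraries. Rpl7l1 showed the clearest contrast, with 5.77 ± 0.302% (n = 9) of its pair with Rpl7 in mesenchyme (5.37 to 6.26%), 3.15 ± 0.476% (n = 7) in erythroid cells (2.73 to 3.92%) and 6.63 ± 0.428% (n = 8) in muscle progenitors (6.23 to 7.49%). Within libraries the erythroid share differed from mesenchyme by -2.54 ± 0.302 points (lower in 7 of 7) and the muscle share by 0.912 ± 0.328 points (higher in 8 of 8).

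Rps27l gave 19.3 to 35.9% of its pair with Rps27 in mesenchyme (27.3 ± 5.63%, n = 9) and 19.5 to 36.8% in erythroid cells (26.8 ± 6.12%, n = 7). In mesenchyme the 3 highest shares were those of the E1C8Δ/Δ libraries, in which Rps27 was low. The paralogs known from testis and from heart and skeletal muscle were near absent from mesenchyme. Over all mesenchymal cells there were 84 UMIs of Rpl39l, 27 of Rpl3l and 1 of Rpl10l, beside 3080370 of Rpl39, 3219357 of Rpl3 and 2230332 of Rpl10. Muscle progenitors had 2 UMIs of Rpl3l, the striated muscle paralog, beside 157176 of Rpl3. Rpl39l, the paralog known from testis, had 29 UMIs in erythroid cells (at most 2.83 CPM), 12 in endothelium (at most 1.45 CPM) and 31 in myeloid cells. In the latter its level was 10.2 CPM in Wt replicate 1, 15.8 in E1C8Δ/Δ replicate 2 and 0 in E1C5Δ/Δ replicate 1, against at most 0.177 in mesenchyme, and it was too low overall to enter the test.

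Within mesenchyme, the 10% of cells richest in a marker list were set against the rest of the same library. The list sums rank cells, the members are in none of the lists, and the differences are given as values without a test. The 10% of cells richest in G2M genes, which mark dividing cells, had a lower ribosomal share in 9 of 9 libraries, by -2.22 to -0.96 percentage points (median -1.36), and those richest in S-phase genes by -0.84 to -0.09 (median -0.57). Cells richest in distal genes (Hoxa13, Hoxd13, Tfap2b, Jag1) and in posterior genes (Shh, Hand2, Osr1, Prdm1) were lower in 9 of 9, by -1.70 to -0.44 and by -2.05 to -0.21. Cells richest in peripheral genes (Asb4, Lhx2, Msx2, Rspo4) were higher in 8 of 9 libraries, with -0.44 to 0.86.

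These cells also differed in depth. The G2M-rich cells had more UMIs per cell than the median of their library in 8 of 9 libraries, and the distal and peripheral cells in 9 of 9. The core cells were deeper than their library's median in 0 of 9 libraries, the proximal cells in 1, the S-phase cells in 2 and the posterior cells in 5, and the part of depth in these differences was not tested. The core cells, richest in the cartilage genes Sox9, Col2a1, Sox5 and Sox6, gave 0.07 to 0.36 points in Wt, 0.25 to 0.35 in E1C5Δ/Δ and -1.74 to -0.71 in E1C8Δ/Δ. The proximal cells (Meis2, Irx3, Rarb, Pkdcc) gave 0.08 to 0.63 in Wt, 0.66 to 1.01 in E1C5Δ/Δ and -1.45 to -0.32 in E1C8Δ/Δ. In both the E1C8Δ/Δ libraries were all below 0 and the others all above, a difference that was not tested.

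Genes of ribosome production were read from lists outside the members. Of the 24 ribosome biogenesis genes tested in mesenchyme, E1C8Δ/Δ had 3 higher and 3 lower than Wt, where 3.7% of all genes were called higher and 5.86% lower. Gar1, a part of the pseudouridylation complex, rose by 0.50 (SE 0.10, adjusted p = 0.014), whereas Heatr1, needed for rRNA transcription, fell by 0.71 (SE 0.13, adjusted p = 0.0111).

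The 12 regulators of ribosome production, among them the mTOR pathway and Myc genes, had 2 higher and 5 lower in E1C8Δ/Δ, against the same shares of all genes. Eif4ebp1, a repressor of cap-dependent translation under mTOR control, rose by 0.50 (SE 0.10, adjusted p = 0.016) and Mycn by 0.66 (SE 0.16, adjusted p = 0.0291). Mtor itself had -0.52 (SE 0.11, adjusted p = 0.0172) and Tsc2, its upstream inhibitor, -0.46 (SE 0.09, adjusted p = 0.0122). Of the 78 mitochondrial ribosomal protein genes 6 were higher and 1 lower, against 3.7% and 5.86% of all genes. Across all 13807 tested genes with a coding length, the E1C8Δ/Δ log2 fold change fell with that length (Spearman rho -0.35). The part of length, embryo sex or single libraries in the calls of these lists was not tested. In E1C5Δ/Δ against Wt 0 of the biogenesis, regulator and mitochondrial ribosomal protein genes passed the edgeR test. Against mesenchyme, 52 of 78 mitochondrial ribosomal protein genes were higher in muscle progenitors and 2 lower (median 0.21). Of 25 biogenesis genes 23 were higher there and 0 lower (median 0.46). In erythroid cells 71 and 21 genes of these lists were higher and 1 and 2 lower (medians 0.74 and 0.48). Of all genes 18.3% were called higher in muscle progenitors and 36.7% in erythroid cells.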

How the data were processed

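Single-cell libraries were made with 10x 3′ chemistry from pairs of forelimb buds. The authors aligned reads to mm10 with Cell Ranger 6.0.1 and deposited UMI counts per gene and called barcode, before their own filters (Seurat 4.3.0.1 is also named in the submitters' processing notes). With the study's thresholds, a barcode was kept above 2500 genes, below 200000 UMIs and below 10% mitochondrial UMIs. Likely doublets (0.8% per 1000 barcodes, by similarity to artificial doublets) were then removed. Cell types were gated by markers here, not by the clustering of the study: at least 3 own markers with at least 2 UMIs, at most 1 of another type and, outside mesenchyme, at most 2 mesenchymal ones. These limits were set on the files. UMIs were summed per library and cell type where at least 20 cells were present. Sums were tested with edgeR 4.0.16 (R 4.3.3; filterByExpr, TMM, quasi-likelihood F test, two-sided, Benjamini-Hochberg adjusted p 0.05), and DESeq2 1.42.0 was an alternative. The test was checked on simulated counts drawn from a common expression profile. They held no difference of sex or preparation between libraries and no globin excess of erythroid cells, so the check does not cover those conditions. X and Y genes were left out of genotype tests. Precision is set by the number of libraries. Replicates are separate libraries, and their numbers did not pair them. Named genes were paralogs, stalk and well-known members, the 5 largest called changes per direction and genotype comparison (the 3 lowest p where none was called), and the 3 largest per direction and cell type with 1 sign in every library; Rps21, Rpl41, Rpl37, Rpl39 and Rpl7l1 in erythroid cells were named after their values were seen. Coding lengths are the longest coding sequence per gene in the GENCODE annotation of the same build; starts are RefSeq's. The members and lists were chosen with earlier results of these data known.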

Additional observations from a re-analysis of the deposited data

Results flagged for a closer look

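The erythroid share of UMIs stood apart in a single library. In E1C5Δ/Δ replicate 1 it was 20.85%, against 16.37 to 18.2% in the other 6 libraries, a gap that Dixon's test flags; 14 groups were examined this way and chance flags about 1 in 20. Without mitochondrial and haemoglobin UMIs that library was at 33.47%, inside the range of 29.04 to 36.25%.

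6 of the 78 members tested differed between the deletions in mesenchyme by the edgeR test of E1C8Δ/Δ against E1C5Δ/Δ. All were lower in E1C8Δ/Δ, where 5.57% of all genes were called lower and 4.43% higher. The log2 differences were -1.30 for Rpl35, -1.0 for Rps29, -0.88 for Rps28, -0.88 for Rpl38, -0.87 for Rps27 and -0.79 for Rpl41.

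The 10% of mesenchymal cells richest in core (cartilage) genes had a mean ribosomal share of -1.10 percentage points relative to the rest in E1C8Δ/Δ, 0.23 in Wt and 0.31 in E1C5Δ/Δ. Those richest in proximal genes had -0.73 in E1C8Δ/Δ, 0.36 in Wt and 0.82 in E1C5Δ/Δ. In both, every E1C8Δ/Δ library moved opposite to every other library, and the difference was not tested.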

How the results depend on the processing

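Members called in mesenchyme for both mutants against Wt numbered 0, with 4 by DESeq2, 2 on library totals, 3 with no filter on low counts and 0 to 5 with a library left out. For E1C8Δ/Δ against Wt the number was 9, with 0 under the embryo sex covariate and 1 to 11 with a library left out. For E1C8Δ/Δ against E1C5Δ/Δ it was 6, with 11 by DESeq2 and 0 to 10 with a library left out. For E1C5Δ/Δ it was 0 under all alternatives run. Replicate numbers did not pair the libraries (correlation of deviations -0.146 to 0.059 for equal numbers). For unequal numbers the correlations ran from -0.154 to 0.26, the highest being that of Wt replicate 1 with E1C5Δ/Δ replicate 3. Whether libraries share a batch under other numbers was not tested. With the replicate number as a block the calls were 4 for E1C8Δ/Δ against Wt, 1 for E1C8Δ/Δ against E1C5Δ/Δ, and 0 for the other genotype comparisons. In muscle progenitors both mutants against Wt gave 1 on library totals and 1 by DESeq2 in place of 0.

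Against mesenchyme, library totals gave 77 for erythroid cells (76 of them lower, reversed from 80 higher), 37 for endothelium (24 lower, reversed from 24 higher and 2 lower), 38 for epithelium (37 higher, 1 lower) and 30 for myeloid cells (27 higher, 3 lower). DESeq2 gave 47 for epithelium and 43 for endothelium. With no library block the calls were 6 for muscle progenitors, 4 for epithelium, 15 for endothelium and 30 for myeloid cells. Muscle progenitors gave 17 with doublets kept, 10 with cells over 1000 genes and 15 with no limit on mesenchymal markers, the last chosen after seeing the data, and epithelium 7 with no filter on low counts. With a library left out the calls were 21 to 39 for muscle progenitors, 80 to 81 for erythroid cells, 7 to 18 for epithelium, 22 to 31 for endothelium and 26 to 54 for myeloid cells. The erythroid share difference was 9.80 points in place of -5.24 without mitochondrial and haemoglobin UMIs. Causes were not tested. Of the members named for their largest changes or lowest p, none reversed under any alternative run, but on library totals the erythroid differences of Rplp1 (-0.04), Rplp2 (-0.41) and Rpl7l1 (-1.37) were below 0. Members picked for size are the least apt to change sign, and in erythroid cells little was left on that scale. Rpsa kept 0.11, Rpl14 0.10 and Rpl36al 0.08. E1C8Δ/Δ replicate 1, with 592 cells kept, and the cell types with few cells give the least precise values.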
